A study of Mus musculus with 12 samples.

Results

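Transcription and RNA factors of young neurons were followed in the cerebellum of Ts1Cje and euploid mice: Sox11, Sox4, Insm1, Nhlh1, Neurod1, Elavl2 and Mycl. They were taken by name, with every probe set that the platform annotation gives to them, which made 9 probe sets for 7 genes out of 12488 probe sets on the array. Sox4 and Sox11 had 2 probe sets each. All 9 passed the filter on low signal that left 7453 probe sets for testing, so none was lost. Of the 7 genes none lies on chromosome 16, which carries the Ts1Cje trisomy. They lie on chromosomes 12 (Sox11), 13 (Sox4), 2 (Insm1 and Neurod1), 1 (Nhlh1) and 4 (Elavl2 and Mycl).

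The samples were 6 pools of total RNA, each hybridised to 2 Affymetrix arrays. Ts1Cje mice, which carry a segmental trisomy of chromosome 16 and model Down syndrome, gave 1 pool of 3 cerebella at each of P0, P15 and P30, where P stands for the postnatal day. Euploid mice, the controls, gave pools of 3 cerebella at P0 and P15 and of 2 at P30. Sex and strain are not given in the labels. With 1 pool for each genotype and stage, a genotype difference within a stage has no replicate check, and the stage differences below were tested over both genotypes together.

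In the cerebellum, granule neurons are born from dividing progenitors of the external granule layer during the first postnatal weeks, leave the cell cycle, migrate inward and mature. SOX4 and SOX11 are related transcription factors with an HMG box that act in newly formed neurons. NEUROD1 and NHLH1 belong to the basic helix-loop-helix (bHLH) family, whose dimers bind short DNA words called E-boxes, and NEUROD1 is known to be needed for the survival and differentiation of cerebellar granule neurons. INSM1 is a zinc finger factor of neuronal and neuroendocrine precursors, ELAVL2 is a neuronal RNA-binding protein of the Hu family that binds AU-rich sequence, and MYCL is the L-Myc member of the MYC family.

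The 12 arrays had median signals between 30.4 and 36.2. Markers of the cerebellum were bright at the later stages. Cbln1, a cerebellin of granule cells, averaged 1908 and 2643 in the Ts1Cje pools of P15 and P30, against 2124 and 2379 in the euploid pools. Calb1, a calcium-binding protein of Purkinje cells, averaged 981 and 1265 in Ts1Cje, against 1282 and 1221 in euploid. In such whole-tissue RNA, fewer cells of a type and less RNA per cell cannot be told apart.

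Markers of other cells moved with stage as well. At P15 against P0, 5 of 6 measured markers of mature granule cells, 5 of 5 of Purkinje cells and 4 of 4 of oligodendrocytes were called higher (13.6% of all tested probe sets). After P15, 4 of 6 markers of choroid plexus and meninges were called higher and 1 lower (1.61% and 3.13% of all tested probe sets). Their summed signal at P0, P15 and P30 was 3726 and 3238, 3262 and 3888, and 6880 and 5259 in Ts1Cje, against 2779 and 2635, 2492 and 3119, and 6188 and 5008 in euploid. The part of these markers in the stage differences below was not tested.

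The factors did not change together. Elavl2, Sox4 and Sox11 were lower at P15 than at P0 and lower again at P30. Mycl showed no called change by P15 and fell sharply after it. Insm1 and Nhlh1 were higher at P15 than at P0 and then fell. Neurod1 was strongly higher at P15 and stayed high at P30. Over both genotypes, limma called 5 of the 9 probe sets lower and 3 higher at P15 than at P0, where 14.4% of all tested probe sets were called lower and 13.6% higher. Between P15 and P30 it called 8 lower and 0 higher, where the background was 3.13% lower and 1.61% higher. Neurod1 was the exception in that step. From P0 to P30, 7 probe sets were called lower and 1 higher (background 19.6% and 19.4%).

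**Figure D1:**
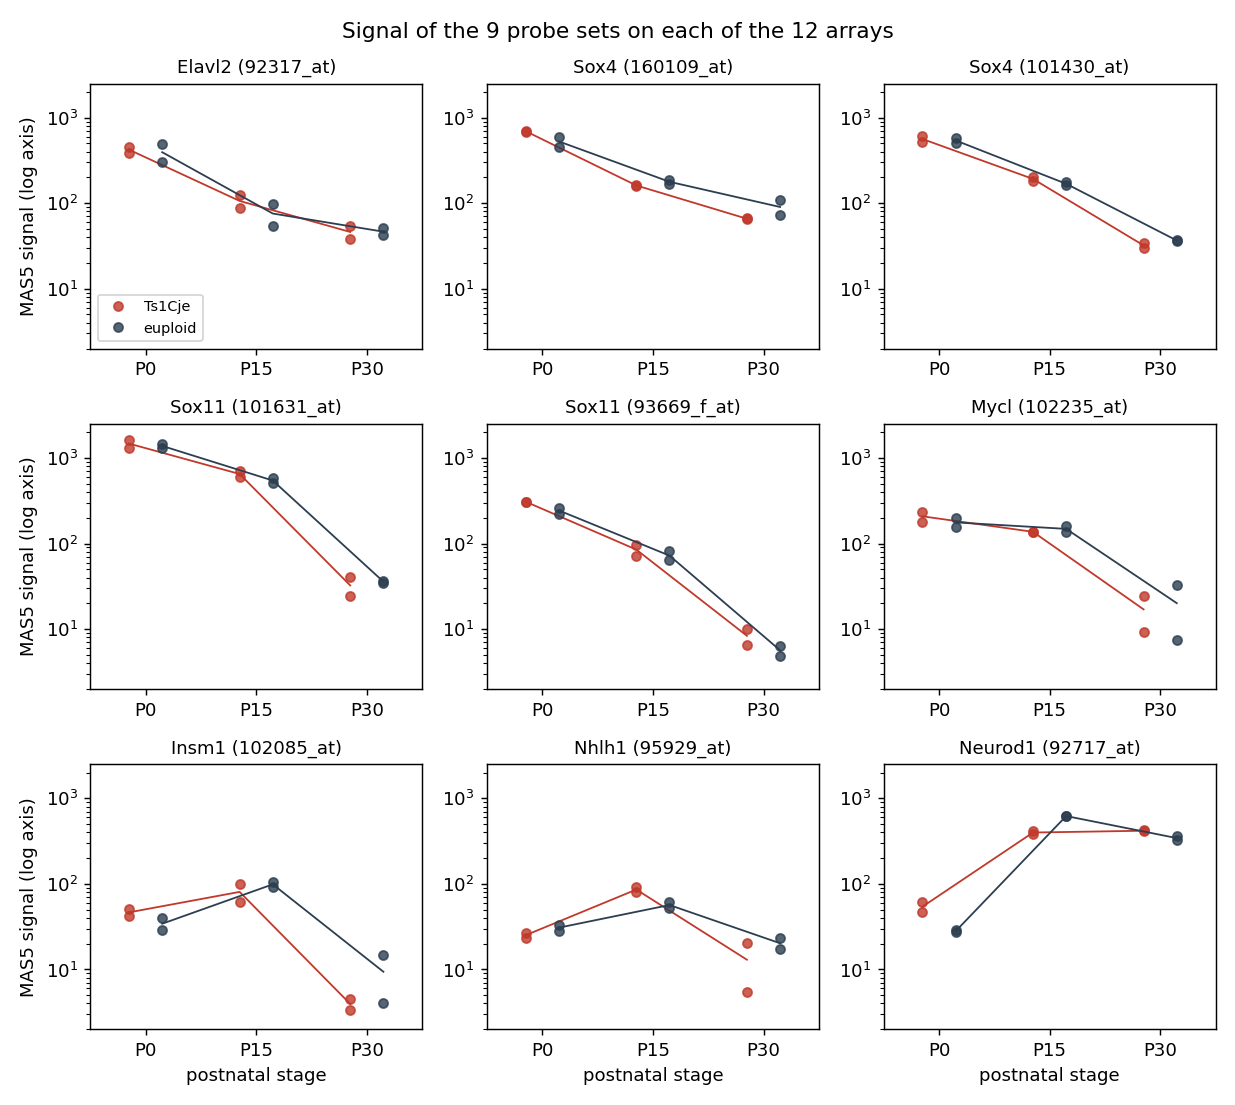
MAS5 signal (log axis) of the 9 probe sets at P0, P15 and P30. Each point is 1 array, red for Ts1Cje and dark blue for euploid, and lines join the pool means. Sox11 (101631_at) ended at 24.1 to 40.7 in both genotypes after 1316.1 to 1634.3 at P0, while Neurod1 stood above 300 at both later stages.

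Over both genotypes Elavl2 showed the largest early fall of the 9 probe sets, although in Ts1Cje alone Sox4 (160109_at) fell further on the log2 scale (-2.08, against -1.96 for Elavl2). Its signal on the 2 arrays of each Ts1Cje pool was 454.6 and 390.4 at P0, 124.7 and 87.9 at P15, and 38.0 and 54.2 at P30. In euploid pools it was 489.1 and 300.6 at P0, 96.7 and 54.7 at P15, and 42.1 and 50.8 at P30. No array of P15 reached the lowest array of P0 in either genotype, and the P15 and P30 arrays of each genotype did not overlap either, although the euploid gap was small. The difference at P15 against P0 was -2.14 ± 0.18 on the log2 scale (SE, 2 pools per stage), a 4.42-fold lower value (limma adjusted p = 0.000105). All log2 values here were taken after adding 4.6 to each signal, so changes at low signal come out smaller than without it. After P15 the difference was -0.87 ± 0.18 (adjusted p = 0.035). This late call ended under 10 of 28 alternatives. Among them were leaving out the Ts1Cje P15 pool (-0.65) or the Ts1Cje P30 pool (-0.70), using second hybridisations alone (-0.38), and leaving out the first array of any pool other than Ts1Cje P0 (-0.67 to -0.87).

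The difference between both steps, P30 minus P15 less P15 minus P0, was tested within each probe set. Among probe sets that fell, it is positive where the early fall was larger and negative where the later one was. An early rise also makes it negative. For Elavl2 it was 1.28 ± 0.31 (limma adjusted p = 0.0444), positive in each genotype. Of the log2 fall seen by P30, 63.5% had taken place by P15 in Ts1Cje and 79.3% in euploid. This call lay close to the threshold and ended under 15 of 28 alternatives, with every value still positive. It was lost without the Ts1Cje P0 pool (1.33), the euploid P0 pool (1.22), the euploid P15 pool (0.83) or the euploid P30 pool (1.11). It was also lost with first hybridisations alone (0.70), and without any 1 of 6 single arrays (0.89 to 1.34), namely the first of Ts1Cje P0, euploid P0 and euploid P30 and the second of Ts1Cje P15, Ts1Cje P30 and euploid P15.

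Sox4 fell at both steps. Probe set 160109_at read 705.0 and 684.4 in the Ts1Cje P0 pool, 160.5 and 162.1 at P15, and 65.3 and 66.3 at P30. In euploid cerebellum it read 457.6 and 597.6, then 169.0 and 186.9, then 107.7 and 72.9. Every stage was separated from the next in both genotypes. At P15, 23.2% of the P0 signal was left in Ts1Cje and 33.7% in euploid, and at P30 9.47% and 17.1%. The differences were -1.80 ± 0.20 by P15 (limma adjusted p = 0.000457) and -1.10 ± 0.20 after it (adjusted p = 0.0249). The later call was lost without the Ts1Cje P30 pool without the Ts1Cje P30 pool (-0.83), with first hybridisations alone (-0.93), and with eBayes without the trend (-1.10, adjusted p = 0.0547).

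The other Sox4 probe set, 101430_at, fell further after P15. It read 603.5 and 523.3 in Ts1Cje at P0, 183.1 and 201.2 at P15, and 29.6 and 34.6 at P30, against 579.7 and 504.9, then 174.9 and 162.4, then 35.9 and 37.4 in euploid. It thus fell by 1.59 ± 0.16 by P15 and by 2.25 ± 0.16 after it on the log2 scale (limma adjusted p = 0.00026 and 0.000462). The 2 probe sets gave the same calls but put the larger step on different sides of P15, at 0.70 ± 0.35 for 160109_at and -0.66 ± 0.28 for 101430_at. Neither difference between steps was called (adjusted p = 0.271 and 0.195), so a larger early or late step of Sox4 was not shown. Of 28 alternatives, 1 called the difference for 101430_at, a fit to all 12 arrays (adjusted p = 0.0448). The same fit with the hybridisation number as a further term did not.

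Sox11 was the brightest of the probe sets at P0 and fell most by P30. Probe set 101631_at read 1634.3 and 1316.1 in Ts1Cje at P0, 600.4 and 700.6 at P15, and 24.1 and 40.7 at P30. In euploid it read 1317.9 and 1454.7, then 512.5 and 578.5, then 34.8 and 36.9. The stages did not overlap, and the loss was nearly complete by P30, with 2.2% of the P0 signal left in Ts1Cje and 2.59% in euploid. By P15 the signal had fallen 2.39-fold (-1.26 ± 0.16, limma adjusted p = 0.000756), and after P15 it fell a further 15.7-fold (-3.97 ± 0.16, adjusted p = 2.33e-05). Ordered from the largest fall between P15 and P30, it ranked 2 of 7453 tested probe sets. The difference between steps was -2.72 ± 0.27 (adjusted p = 0.00113), of the opposite sign to that of Elavl2.

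The second Sox11 probe set, 93669_f_at, was dimmer, and its suffix marks probes that can match a family of similar sequences. It read 309.6 and 307.5 in Ts1Cje at P0, 97.5 and 72.5 at P15, and 6.6 and 10.1 at P30, against 263.7 and 224.1, then 81.0 and 63.6, then 4.9 and 6.4 in euploid. Both steps were called, with -1.76 ± 0.17 and -2.85 ± 0.17 (limma adjusted p = 0.00021 and 0.000203). Here the difference between steps, -1.09 ± 0.30, was not called (adjusted p = 0.0621), and the P30 signals lay close to the added 4.6, which compresses the later step. It was called under 5 of 28 alternatives: an added value of 1 (-1.53), first hybridisations alone (-1.55), without the second Ts1Cje P15 array (-1.29), and both fits to 12 arrays (adjusted p = 0.0151 and 0.0242).

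Sox4 and Sox11 both fell at both steps, though by different amounts at each. The 250 bases before their annotated starts are shown, from RefSeq (GRCm38.p6, minus strand, chr12:27342719-27342968 for Sox11 and chr13:28953700-28953949 for Sox4). Capitals mark E-boxes (CANNTG, which reads as CANNTG on the other strand too) and CCAAT boxes (CCAAT or, on the other strand, ATTGG), and no marked words overlap.
Sox11: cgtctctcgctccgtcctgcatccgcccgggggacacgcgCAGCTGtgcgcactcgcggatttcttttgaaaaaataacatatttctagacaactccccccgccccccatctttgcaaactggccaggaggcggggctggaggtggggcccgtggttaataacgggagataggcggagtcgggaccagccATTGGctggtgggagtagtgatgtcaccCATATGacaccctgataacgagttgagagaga
Sox4: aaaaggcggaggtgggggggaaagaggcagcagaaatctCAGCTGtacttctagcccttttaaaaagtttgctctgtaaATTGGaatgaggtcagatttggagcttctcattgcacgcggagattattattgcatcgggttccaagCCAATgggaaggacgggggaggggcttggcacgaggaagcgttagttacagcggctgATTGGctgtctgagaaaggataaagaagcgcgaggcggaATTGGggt
Both hold the E-box CAGCTG at nearly the same place, starting 210 bases before the start of Sox11 and 211 before that of Sox4. This word occurs in 13% of all 32851 windows of the same length, any E-box in 66.2% and a CCAAT box in 33.8%. Sox11 holds a second E-box, CATATG, 32 bases before its start, and 1 CCAAT box, while Sox4 holds 4. A match to a word is a description and says nothing of a factor bound there.

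Mycl fell after P15 without a called change before it. It read 181.0 and 235.6 in Ts1Cje at P0, 137.5 and 136.7 at P15, and 9.3 and 24.7 at P30. In euploid it read 155.9 and 197.6, then 161.6 and 135.3, then 32.7 and 7.5. The euploid arrays of P0 and P15 overlapped, and those of Ts1Cje did not, while every P30 array lay far below all earlier ones. The early difference was -0.41 ± 0.17 (limma adjusted p = 0.115), with a 95% interval of -0.80 to -0.01 that leaves room for a modest fall. The later one was -2.83 ± 0.17, or 7.1-fold (adjusted p = 0.000203), and the difference between steps was -2.42 ± 0.30 (adjusted p = 0.00358). With second hybridisations alone the difference between steps was -2.25 and not called. By P15, 65.8% of the P0 signal was left in Ts1Cje and 84.0% in euploid, and by P30 8.16% and 11.4%.

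**Figure D2:**
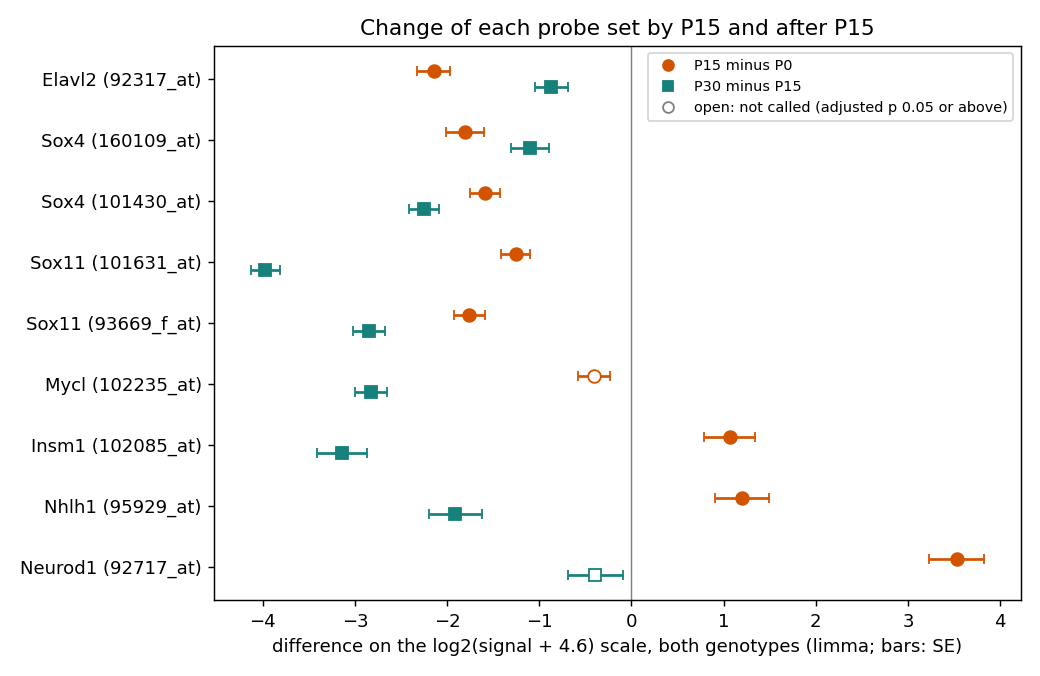
Difference of each probe set at P15 against P0 (circles) and at P30 against P15 (squares) on the log2(signal + 4.6) scale over both genotypes, with SE bars. Filled symbols were called by limma. Both steps use the same P15 pools. Elavl2 lay at -2.14 and then -0.87, Mycl at -0.41 and then -2.83, and Neurod1 at 3.53 and then -0.39.

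Insm1 was higher at P15 and then almost lost. It read 42.5 and 50.5 in Ts1Cje at P0, 100.6 and 60.8 at P15, and 3.4 and 4.5 at P30. In euploid it read 39.5 and 29.0, then 104.9 and 92.9, then 14.8 and 4.0. The P15 arrays lay above the P0 arrays and the P30 arrays below them in both genotypes. At P15 it was higher by 1.06 ± 0.27 (limma adjusted p = 0.0203) and after P15 lower by 8.82-fold (-3.14 ± 0.27, adjusted p = 0.0012). At P30 it was also lower than at P0 (-2.08 ± 0.27, adjusted p = 0.000534). Most P30 signals lay near the added 4.6, which compresses the log2 value, and detection calls were not analysed. The size of that fall is thus not well determined. The rise was less firm than the fall: it was not called without the euploid P0 pool (0.63), without the euploid P15 pool (0.95), without the first array of the Ts1Cje P15 pool (0.89), or with second hybridisations alone (0.89).

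Nhlh1, a bHLH factor of newly postmitotic neurons, followed a like course at a low signal. It read 23.5 and 26.8 in Ts1Cje at P0, 79.6 and 92.3 at P15, and 20.6 and 5.4 at P30. In euploid it read 28.3 and 33.3, then 60.8 and 52.5, then 17.2 and 23.3. P15 was the highest stage on every array of both genotypes. The rise was 1.20 ± 0.29 (limma adjusted p = 0.0167) and the later fall -1.91 ± 0.29 (adjusted p = 0.0129), while P30 against P0, at -0.71 ± 0.29, was not called (adjusted p = 0.0872). Without the Ts1Cje P15 pool the rise was 0.69 and without the Ts1Cje P0 pool 1.09, neither of them called. The rise was also lost without the first array of the Ts1Cje P30 pool (1.20, adjusted p = 0.0526), and with second hybridisations alone neither the rise (1.11) nor the fall (-2.15) was called. P30 against P0 was called without the euploid P15 pool (-0.71), the euploid P30 pool (-1.11) or the Ts1Cje P15 pool (-0.71). The rise was 1.60 in Ts1Cje and 0.79 in euploid on the log2 scale, and the fall -2.51 and -1.31.

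Neurod1 was the only one of the 9 probe sets called higher at P30 than at P0. It read 47.5 and 60.8 in Ts1Cje at P0, 413.0 and 384.8 at P15, and 413.7 and 423.6 at P30. In euploid it read 27.3 and 28.6, then 617.7 and 625.5, then 322.8 and 364.0. All arrays of the later stages lay far above those of P0. Between P15 and P30 the signal was nearly level in Ts1Cje and fell in euploid. At P15 the gene was 11.5-fold higher than at P0 (3.53 ± 0.30, limma adjusted p = 0.000106). After P15 the difference was -0.39 ± 0.30 (adjusted p = 0.471), with a 95% interval of -1.07 to 0.29. That value averages nearly no change in Ts1Cje (0.070) and a fall in euploid (-0.85). Without the Ts1Cje P15 pool it was -0.99 and called (adjusted p = 0.0239), and without the euploid P15 pool it was 0.21 and not called.

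Both bHLH genes were called higher at P15, though by different amounts and with different courses after it. The 250 bases before their starts are shown with E-boxes and CCAAT boxes in capitals (RefSeq, GRCm38.p6, minus strand, chr1:172057597-172057846 for Nhlh1 and chr2:79456637-79456886 for Neurod1).
Nhlh1: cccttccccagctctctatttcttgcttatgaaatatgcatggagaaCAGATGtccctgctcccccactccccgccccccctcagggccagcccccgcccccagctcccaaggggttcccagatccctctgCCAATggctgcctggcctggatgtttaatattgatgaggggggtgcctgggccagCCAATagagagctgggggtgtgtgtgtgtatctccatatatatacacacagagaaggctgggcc
Neurod1: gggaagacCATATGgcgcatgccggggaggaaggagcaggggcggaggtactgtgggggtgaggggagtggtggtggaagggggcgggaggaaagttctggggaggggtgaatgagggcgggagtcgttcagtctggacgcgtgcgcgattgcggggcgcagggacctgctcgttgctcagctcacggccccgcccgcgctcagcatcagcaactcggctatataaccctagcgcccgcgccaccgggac
Each holds 1 E-box, CAGATG 203 bases before the start of Nhlh1 and CATATG 242 bases before that of Neurod1. CAGATG (or CATCTG) occurs in 14.4% of all such windows and CATATG in 3.5%. Nhlh1 has 2 CCAAT boxes and Neurod1 has 0 in this window.

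Across the 9 probe sets, the difference between steps was called below 0 in 5 (background 4.67%), namely the brighter Sox11 probe set, Mycl, Insm1, Nhlh1 and Neurod1, and above 0 in 1, Elavl2 (2.71%). For Insm1 it was -4.20 ± 0.47, for Nhlh1 -3.11 ± 0.51 and for Neurod1 -3.92 ± 0.51 (limma adjusted p = 0.00206, 0.0104 and 0.00452). In Insm1 and Nhlh1 the value holds the early rise as well as the later fall. In Neurod1 it is mainly the early rise (3.53), as the later difference (-0.39) was not called. For Nhlh1 the call of the difference between steps was lost without the Ts1Cje P15 pool (-2.10) and with second hybridisations alone (-3.26). The median of the 9 probe sets was -1.26 at P15 against P0 and -2.25 at P30 against P15, beside -0.03 and 0.06 over all probe sets.

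Each genotype alone gave similar counts. Counting a probe set where the pools differed at least 1.5-fold with no overlap of their arrays, P15 against P0 gave 5 lower and 3 higher in Ts1Cje (background 16.2% and 15.2%) and 5 lower and 3 higher in euploid (16.4% and 14.9%). Mycl was the one not counted in either genotype. P30 against P15 gave 8 lower and 0 higher in Ts1Cje (7.57% and 7.26%) and 9 lower and 0 higher in euploid (7.82% and 8.25%), and the probe set that differed was Neurod1. P30 against P0 gave 8 lower and 1 higher in Ts1Cje (19.8% and 20.1%) and 7 lower and 1 higher in euploid (17.3% and 18%), where the uncounted one was Nhlh1.

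The genotypes did not differ by a called amount in any of the 9 probe sets. Over the 3 stages, limma called 0 of 7453 probe sets (0%), and 217 (2.91%) had an unadjusted p under 0.05, of which 0 were among the 9. With no call on the whole array, the lack of one among the 9 says little about these genes in particular. Fits to all 12 arrays called 14 and, with the hybridisation number as a further term, 6, again with 0 among the 9. The differences of the 9 probe sets, Ts1Cje minus euploid, ranged from -0.17 ± 0.22 for Insm1 to 0.29 ± 0.14 for Sox11 (93669_f_at), each with an adjusted p of 1. The brighter Sox11 probe set gave 0.06 ± 0.13, with a 95% interval of -0.24 to 0.35, and Mycl 0.02 ± 0.14, with an interval of -0.31 to 0.34. For Neurod1, at 0.16 ± 0.24, the interval of -0.39 to 0.72 was wider. A difference that changed steadily with postnatal day was not called for any of the 7453 probe sets either (193, or 2.59%, with an unadjusted p under 0.05, of which 0 were among the 9). The lowest p of the 9 belonged to Sox4 160109_at, whose change from P0 to P30 was -0.81 ± 0.37.

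Within single stages, 2 differences passed 1.5-fold without overlap of arrays, and both belonged to Neurod1. At P0 its mean signal was 54.1 in Ts1Cje and 27.9 in euploid (0.84 on the log2 scale), which made 1 higher and 0 lower beside a background of 3.54% and 3.86%. At P15 it was 398.9 in Ts1Cje and 621.6 in euploid (-0.63), which made 1 lower and 0 higher (1.95% and 3.21%). At P30 it was 418.6 in Ts1Cje and 343.4 in euploid (0.28), and no probe set of the 9 counted (2.28% higher and 2.13% lower). At P15, 6 of 6 measured markers of mature granule cells and 4 of 5 of Purkinje cells had a lower mean in Ts1Cje. The summed signal of 6 granule cell markers at P15 was 7506 and 8609 in Ts1Cje, against 8683 and 10303 in euploid, and at P30 9986 and 10413 against 8818 and 8716. Zic1 makes up a large part of these sums. Its means at P15 and P30 were 4098 and 4640 in Ts1Cje, against 4443 and 3405.5 in euploid. Sums without Zic1 were not made. The summed signal of 5 Purkinje cell markers at P15 was 5778 and 6272 in Ts1Cje, against 7676 and 7678 in euploid. At P0 the granule sums overlapped (2902 and 3296 in Ts1Cje, 3353 and 3296 in euploid), and Gabra6, a receptor subunit of mature granule cells, was near 0 in both. By count, 5 of 6 granule cell markers and 5 of 5 Purkinje cell markers had a higher mean in Ts1Cje at P0, where the Purkinje sums were 739 and 843 in Ts1Cje, against 614.5 and 582 in euploid. At P0, 6 of 8 markers of progenitors and division were higher in Ts1Cje. No marker of these lists had a mean of 0. At P15, 6 of 6 markers of choroid plexus and meninges were higher in Ts1Cje, and 3 of 3 blood markers were lower there at each stage. No marker was called for genotype in the fit to the pools. The share of all probe sets with a lower or higher mean in Ts1Cje was not counted beside these marker counts. The part of these markers in the Neurod1 differences was not tested.

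**Figure D3:**
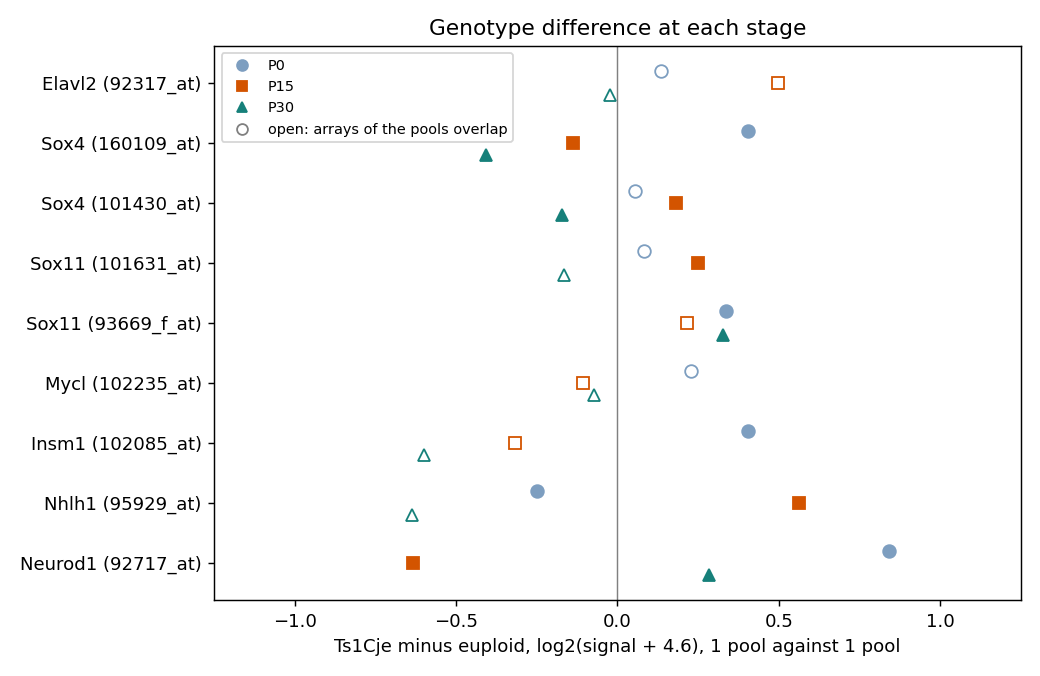
Ts1Cje minus euploid on the log2(signal + 4.6) scale at P0 (circles), P15 (squares) and P30 (triangles), 1 pool against 1 pool. Open symbols mark pools whose arrays overlapped. Neurod1 lay at 0.84, -0.63 and 0.28, and Sox4 (160109_at) at 0.41, -0.14 and -0.41.

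Related genes were counted in the same fit. Of all tested probe sets, 14.4% were called lower and 13.6% higher by P15, and 3.13% lower and 1.61% higher after it. These shares are the background of all list counts below. Of 7 other SOX genes measured, 2 were called lower and 2 higher at P15 than at P0 (median 0.12 over the list, against -0.03 over all probe sets), and 0 changed by a called amount after P15. Sox2, a factor of neural stem cells and glia, fell by 1.02 ± 0.14 and Sox3 by 0.91 ± 0.19 (limma adjusted p = 0.0012 and 0.00899). Sox10, a factor of oligodendrocytes, rose by 0.78 ± 0.15, and Sox18, of endothelium, by 0.61 ± 0.18. Of 12 further bHLH, ID and HES factors, 3 were called lower and 4 higher by P15 (median 0.09). Neurod2, a close relative of Neurod1, rose by 1.70 ± 0.18 and Hey1, a Notch target, by 1.38 ± 0.27. Id4, an inhibitor of bHLH dimers, fell by 1.24 ± 0.17 and Hes6 by 1.14 ± 0.17.

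Of 19 zinc finger and homeobox factors of neurons, 5 were called lower and 8 higher by P15 (median -0.16). Ebf3 fell by 2.28 ± 0.20 and Myt1l by 1.22 ± 0.16, whereas Eomes, a factor of unipolar brush cells, rose by 1.75 ± 0.20 and Myt1, of the oligodendrocyte lineage, by 1.09 ± 0.14. Of 13 RNA-binding proteins, 2 were called lower and 1 higher by P15 (median -0.03), and 1 lower after it. Elavl3 and Elavl4, the other neuronal Hu proteins, had differences of -0.05 ± 0.19 and -0.26 ± 0.23 by P15, neither called, where Elavl2 fell by 2.14. The splicing regulator Ptbp2 fell by 0.92 ± 0.19 and the RNA-binding Khdrbs1 fell by 0.84 ± 0.25, and Mbnl1, also a splicing regulator, rose by 0.86 ± 0.16. Celf2 fell after P15 by 0.88 ± 0.19.

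In the MYC and MAX network, Mycn, the MYC gene that Sonic hedgehog drives in granule progenitors, was the only one of 6 genes called lower after P15. It averaged 100.05, 52.6 and 16.2 in Ts1Cje at P0, P15 and P30, and 80.0, 65.8 and 22.8 in euploid. As in Mycl, the early difference (-0.57 ± 0.22) was not called and the later one (-1.40 ± 0.22, limma adjusted p = 0.0142) was. Unlike in Mycl, the difference between steps, -0.83 ± 0.39, was not called (limma adjusted p = 0.232). A larger late step of Mycn was thus not shown. By P15, Mxi1 and Mxd4, which compete with MYC proteins for MAX, rose by 0.97 ± 0.17 and 1.15 ± 0.31. Of 8 markers of granule progenitors and cell division, 3 were called lower and 1 higher by P15, and 3 lower after it. The higher one was Ptch1, the receptor of Sonic hedgehog, with a difference of 0.91 ± 0.19 (limma adjusted p = 0.00831) and means of 256, 392.5 and 556 in Ts1Cje and 211, 492 and 430 in euploid. Mki67, a marker of dividing cells, averaged 60.5, 27.9 and 0.9 in Ts1Cje and 43.2, 16.5 and 0.5 in euploid. The summed signal of these 8 markers, of which Ptch1 makes up a large part, was 1098 and 1126 in Ts1Cje at P0, 1049 and 825 at P15 and 961 and 979 at P30, and in euploid 1047 and 840, 1137 and 953, and 884 and 894. Their part in the falls of Mycl and Sox11 was not tested.

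Of 14 structural and membrane proteins of young neurons, 12 were called lower and 1 higher by P15 (median -1.39), and 5 lower after it (median -0.51). By P15 Nnat fell by 3.99 ± 0.23, and St8sia2, a sialyltransferase that modifies NCAM, fell by 2.97 ± 0.16 (limma adjusted p = 1.54e-05 and 8.64e-06). Dcx, the microtubule-binding doublecortin, had differences of -1.68 by P15 and -4.15 ± 0.19 after it, and Marcksl1 of -1.05 and -2.41 ± 0.15. Nrep was higher at P15, by 0.70 ± 0.13.

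**Figure D4:**
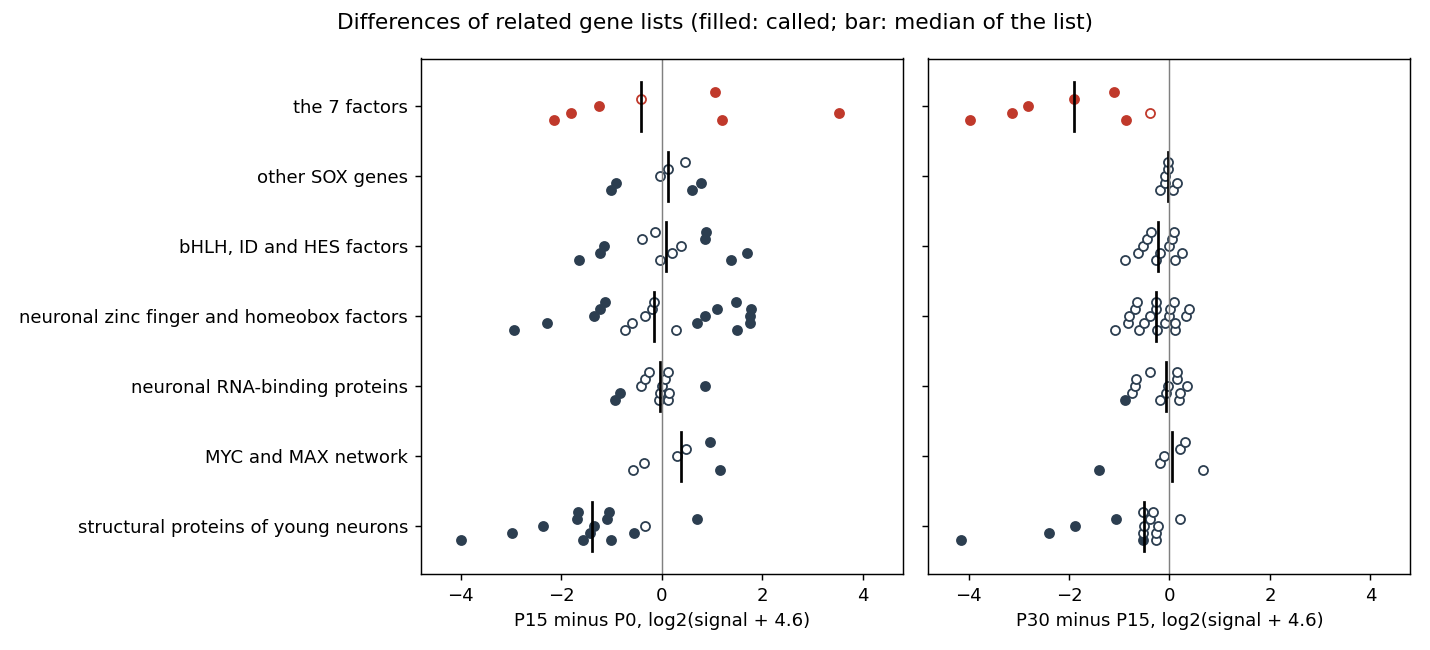
Differences of the 7 factors (red, 1 probe set per gene) and of 6 related gene lists (dark blue) at P15 against P0 (left) and P30 against P15 (right), on the log2(signal + 4.6) scale. Filled points were called and bars are list medians. After P15, 6 of the 7 factors were called lower, where 3.13% of all tested probe sets were. Called lower were 5 of 14 structural proteins, 1 of 13 RNA-binding proteins and 1 of 6 MYC and MAX genes. None was among 7 other SOX genes, 12 bHLH, ID and HES factors or 19 zinc finger and homeobox factors.

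Profiles over the 6 pools were compared by Euclidean distance of mean-centred log2 values, as a description. By this measure the 2 probe sets of Sox4 lay 1.27 apart and those of Sox11 1.19. The brighter probe set of each gene was used, 160109_at for Sox4 and 101631_at for Sox11. The pairs and neighbours below rest on these alone. Distances from the other Sox4 and Sox11 probe sets to other genes were not computed. The 2 Sox4 probe sets lay further apart than Sox4 and Elavl2 do below, so that pairing may not hold for 101430_at. Sox4 and Elavl2 lay closest of all pairs among the 7 genes (0.66), followed by Insm1 and Mycl (1.61) and Insm1 and Nhlh1 (1.69), and Neurod1 lay at least 4.09 from any other. Outside the 7 genes, Dcx was nearest to Sox11 (0.87), followed by Basp1 (1.30) and Igfbpl1 (1.31). Tmeff1 (0.27), Rcn1 (0.35) and F2r (0.37) were nearest to Sox4, and Nexmif (0.34), Hmgb3 (0.47) and Nrp1 (0.50) to Elavl2. Mycl had Marcksl1 (0.70), Mki67 (0.90) and Fabp7 (0.92). Neurod1 had Car8 (0.40), Pkib (0.75) and Gdf10 (0.81). Spata13 (0.67), Plcd1 (0.88) and Kcnk2 (0.91) were nearest to Nhlh1, while Insm1 had no profile nearer than 1.53 (Kcnk2 and Socs3, followed by Marcks at 1.61).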

How the data were processed

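Total RNA of individual cerebella was pooled and each pool hybridised to 2 arrays, per the labels' protocols. The deposited values are linear signal intensities made by the authors with MAS5, per the submitters' processing notes. Its version and settings were not given in the sources used here. Trimmed means of 100.05 to 100.06 show a prior scaling, so none was added. Detection calls were not analysed here. Precision is limited by how many pools and arrays there are.

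Signals were transformed to log2(signal + 4.6), 4.6 being the 20th percentile of all values. After leaving out 66 control probe sets and dim probe sets (averages below 20.1, which is the 40th percentile), 7453 were tested. Log2 values were averaged over both arrays of a pool, and pools were the units tested. limma 3.58.1 in R 4.3.3 (lmFit, eBayes with a trend) fitted genotype and stage to the 6 pools, leaving 2 residual and adding 6.39 prior degrees of freedom. P-values were two-sided, adjusted by Benjamini-Hochberg over all tested probe sets, and called under 0.05. They measure only the spread between these pools, which may be technical and also holds any change of the stage difference with genotype. The fit was also run on simulated pools with independent normal noise drawn at its own estimated spread. That run cannot test whether this spread is right for the real pools.

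Symbols came from the platform annotation (10855 probe sets with 1 symbol, 396 with several, 1237 with none), of which 10839 matched RefSeq. List genes with several probe sets were read from the brightest one on average. From each related list, up to 2 called rises and 2 called falls with the smallest p per step are named, beside Elavl3, Elavl4, Cbln1, Calb1, Mki67, Ptch1, Gabra6 and the summed markers, which were chosen after their values were seen. The 3 nearest profiles of each factor are named. The factors and lists were chosen with earlier results of these data known. Promoter windows were found for 6 of the 7 genes, with several starts for Elavl2, and were shown for 4. Alternatives were the added value, the filter, quantile normalization, eBayes without the trend, each hybridisation, array and pool left out, and a fit of 12 arrays.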

Additional observations from a re-analysis of the deposited data

Results flagged for a closer look

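Of the 9 probe sets, 4 had directions that were opposite between genotypes or stages on all arrays concerned. These were 1 pool against 1 pool, and the difference of the effects was not tested. How many of all tested probe sets did the same was not counted, so 4 of 9 cannot be called many or few. From P15 to P30, Neurod1 was nearly level in Ts1Cje (0.070), where the closest arrays read 413.0 and 413.7. It was lower in euploid (-0.85), a gap of 0.92 on the log2 scale. Its genotype difference was positive at P0, negative at P15 and positive at P30, moving by -1.48 between the first pair of stages and by 0.92 between the second. For Nhlh1 the genotype difference was negative at P0 (-0.25) and positive at P15 (0.56), a gap of 0.81. For Sox4 (160109_at) it was positive at P0 (0.41) and negative at P15 (-0.14) and P30 (-0.41), gaps of -0.54 and -0.81. The other Sox4 probe set was higher in Ts1Cje at P15 (0.18) and lower at P30 (-0.17), a gap of -0.35, so the 2 Sox4 probe sets had opposite directions at P15.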

How the results depend on the processing

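Over all alternatives, 1164 of the values for single probe sets kept their direction and their side of the threshold, 40 lost a call, 10 gained one and 36 changed sign. All sign changes but that of Neurod1 after P15 were genotype differences, none of them called. Of the stage differences, the early falls of Sox4, Sox11 and Elavl2, the early rise of Neurod1 and the late falls of Sox11, Insm1, Mycl and Sox4 (101430_at) kept their calls under every alternative run. Leaving out each array and each pool in turn gave ranges. Calls at P15 against P0 were 1499 to 2183 in all, with 5 to 5 lower and 2 to 3 higher among the 9 probe sets. Calls at P30 against P15 were 141 to 508, with 6 to 8 lower. At P30 against P0 they were 1830 to 3293, with 7 to 8 lower. For the difference between steps they were 253 to 736, with 4 to 6 below 0 and 0 to 1 above, and for genotype 0 to 6. Genotype differences ranged from -0.059 to 0.12 for Sox4 (101430_at), -0.27 to 0.14 for Sox4 (160109_at), -0.054 to 0.17 for Sox11 (101631_at), -0.46 to 0.044 for Insm1, -0.25 to 0.29 for Mycl, -0.18 to 0.56 for Neurod1 and -0.44 to 0.16 for Nhlh1. Those of Elavl2, at 0.055 to 0.33, and of Sox11 (93669_f_at), at 0.23 to 0.36, stayed positive without being called. That of Mycl was -0.0037 under quantile normalization. Neurod1 after P15 ranged from -0.99 to 0.21. First hybridisations alone gave 746 calls at P30 against P15, 0 positive differences between steps among the 9, and genotype differences of -0.041 for Sox4 (101430_at), -0.48 for Mycl and 0.12 for Nhlh1. Second hybridisations alone gave 98 calls at P30 against P15, 258 for the difference between steps (3 below 0 among the 9), 1 early rise among the 9, and 0.073 for the genotype difference of Insm1.

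No probe set of the 9 had a called positive difference between steps (0, against 1) with an added value of 1, without the filter, under quantile normalization or without the trend. Calls at P30 against P15 were 199 without the filter and 183 without the trend, against 353. A stricter filter, which dropped Insm1 and Nhlh1, left 1 early rise and 3 differences between steps below 0. Fitted to 12 arrays with the pool as a random block, calls were 1016 at P30 against P15, 1334 for the difference between steps and 14 for genotype. With the hybridisation number as a replicate block they were 898, 1229 and 6. The numbers mark hybridisations of 1 pool and pair nothing by the labels: deviations of same-numbered arrays correlated at -0.12 to 0.35 over 15 pairs. With 2-fold in place of 1.5-fold, Neurod1 no longer counted at P0 (0 higher) or P15 (0 lower). The cause of these changes was not tested, beyond fewer members under the stricter filter. Signals near or under the added 4.6, as for Insm1 and the dimmer Sox11 probe set at P30, limit what their late falls can show.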
